A study of Mus musculus with 8 samples.

Results

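The receptors described here are the aminergic, peptide and lipid receptors of class A, together with the numbered Gpr genes, on an array of mouse cortex. They were chosen by gene symbol alone: a probe set counted when its single annotated symbol named a receptor for serotonin, dopamine (Drd2 was not included), noradrenaline, acetylcholine, histamine, somatostatin, neuropeptide Y, opioids, tachykinins, neurotensin, cannabinoids, lysophosphatidic acid, sphingosine 1-phosphate, nucleotides or endothelin, or began with Gpr and a number. For each gene the probe set with the highest mean log2 signal was used. This gave 62 genes, read by 71 probe sets, of 8251 genes with a single symbol on the array. The name pattern also took in Gpr137b, which encodes a lysosomal membrane protein, its pseudogene Gpr137b-ps, and Gpr143, a receptor of pigment cells, so not every one of the 62 is a class A receptor.

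Cortical tissue (bregma 0 to -2 mm) came from 8 C57/bl6 mice of 4 months, 1 array per mouse and 2 mice in each of 4 groups: S1/2-/- mice at ZT16, S1/2-/- mice at ZT4, WT mice at ZT16 and WT mice at ZT4. ZT gives the hours since lights on, so ZT4 lies in the light phase, when mice mostly rest, and ZT16 in the dark phase, when they are active. S1/2-/- mice are constitutive nulls for both SHARP1 (Bhlhe41) and SHARP2 (Bhlhe40), repressors of the circadian feedback loop that bind the E-box CACGTG, and the loss is not limited to cortex or to adult life. All mice were group-housed in a light-dark cycle.

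Receptors of this class cross the membrane with a bundle of helices and pass the binding of a transmitter, peptide or lipid on to G proteins: Gs raises cyclic AMP, Gi lowers it, and Gq releases calcium. In cortex, amine receptors receive the ascending serotonin, noradrenaline, dopamine, histamine and acetylcholine fibres that set arousal, peptide receptors read somatostatin, neuropeptide Y and opioid peptides released by local interneurons, and several orphan and lipid receptors are characteristic of glia. Most receptor mRNAs are scarce in tissue, so many sit near the detection limit of an array.

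Of the 62 genes, 30 (48.4%) had a mean log2 signal over all 8 arrays of at least 6.79, the 40th percentile of the array, which corresponds to a signal of 110.9, and entered the tests. The other 32 were dimmer. Among all genes with a single symbol, 5690 of 8251 (69%) passed the same limit. S1pr1 lay just above it at a mean log2 signal of 6.87 and Gpr3 just below it at 6.78. All receptors for cannabinoids (Cnr1 and Cnr2), endothelin (Ednrb), tachykinins (Tacr1 and Tacr2) and nucleotides (P2ry1 and P2ry2) fell below it. A signal also depends on the probes of each gene, so the order of genes below is an order of array signals and not of mRNA amounts.

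The brightest receptors were glial or orphan receptors. Gpr37l1, an orphan receptor of astrocytes, had signals between 2392 and 3648 over the 8 arrays, with a median of 3274. Gpr162, another orphan receptor, lay between 2318 and 2833. Ntsr2, the low-affinity neurotensin receptor that cortical astrocytes carry, lay between 1367 and 2841. The next brightest numbered receptors were Gpr12 (662 to 1235), an orphan receptor that raises cyclic AMP without an added ligand, Gpr27 (604 to 991), one of the conserved brain orphans, and Gpr50 (578 to 940.4), the melatonin-related receptor.

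Among receptors with a named transmitter, Chrm1, the main Gq-coupled muscarinic receptor of cortical pyramidal cells, lay between 495 and 800.1. The somatostatin receptors Sstr4 (447 to 742) and Sstr2 (433 to 549), both Gi-coupled, were brighter than Sstr5 (95.3 to 164), while Sstr3 and Sstr1 stayed at or under 46.4. Lpar1, a receptor for lysophosphatidic acid that myelinating oligodendrocytes carry, lay between 302 and 588. Of 10 serotonin receptors 5 passed the limit, led by Htr5a (292 to 469) and Htr4 (227 to 307). The brightest adrenergic, opioid-family, sphingosine and neuropeptide Y receptors were Adra2c (275 to 481), a presynaptic brake on noradrenaline release, the nociceptin receptor Oprl1 (295 to 449), S1pr3 (238 to 437) and Npy1r (189 to 463). Drd4 (124 to 356), Hrh1 (106 to 208) and Hrh2 (52.1 to 227) led the dopamine and histamine receptors. The 3 classical opioid receptors, Oprk1, Oprd1 and Oprm1, reached at most 103 on any array.

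**Figure D1:**
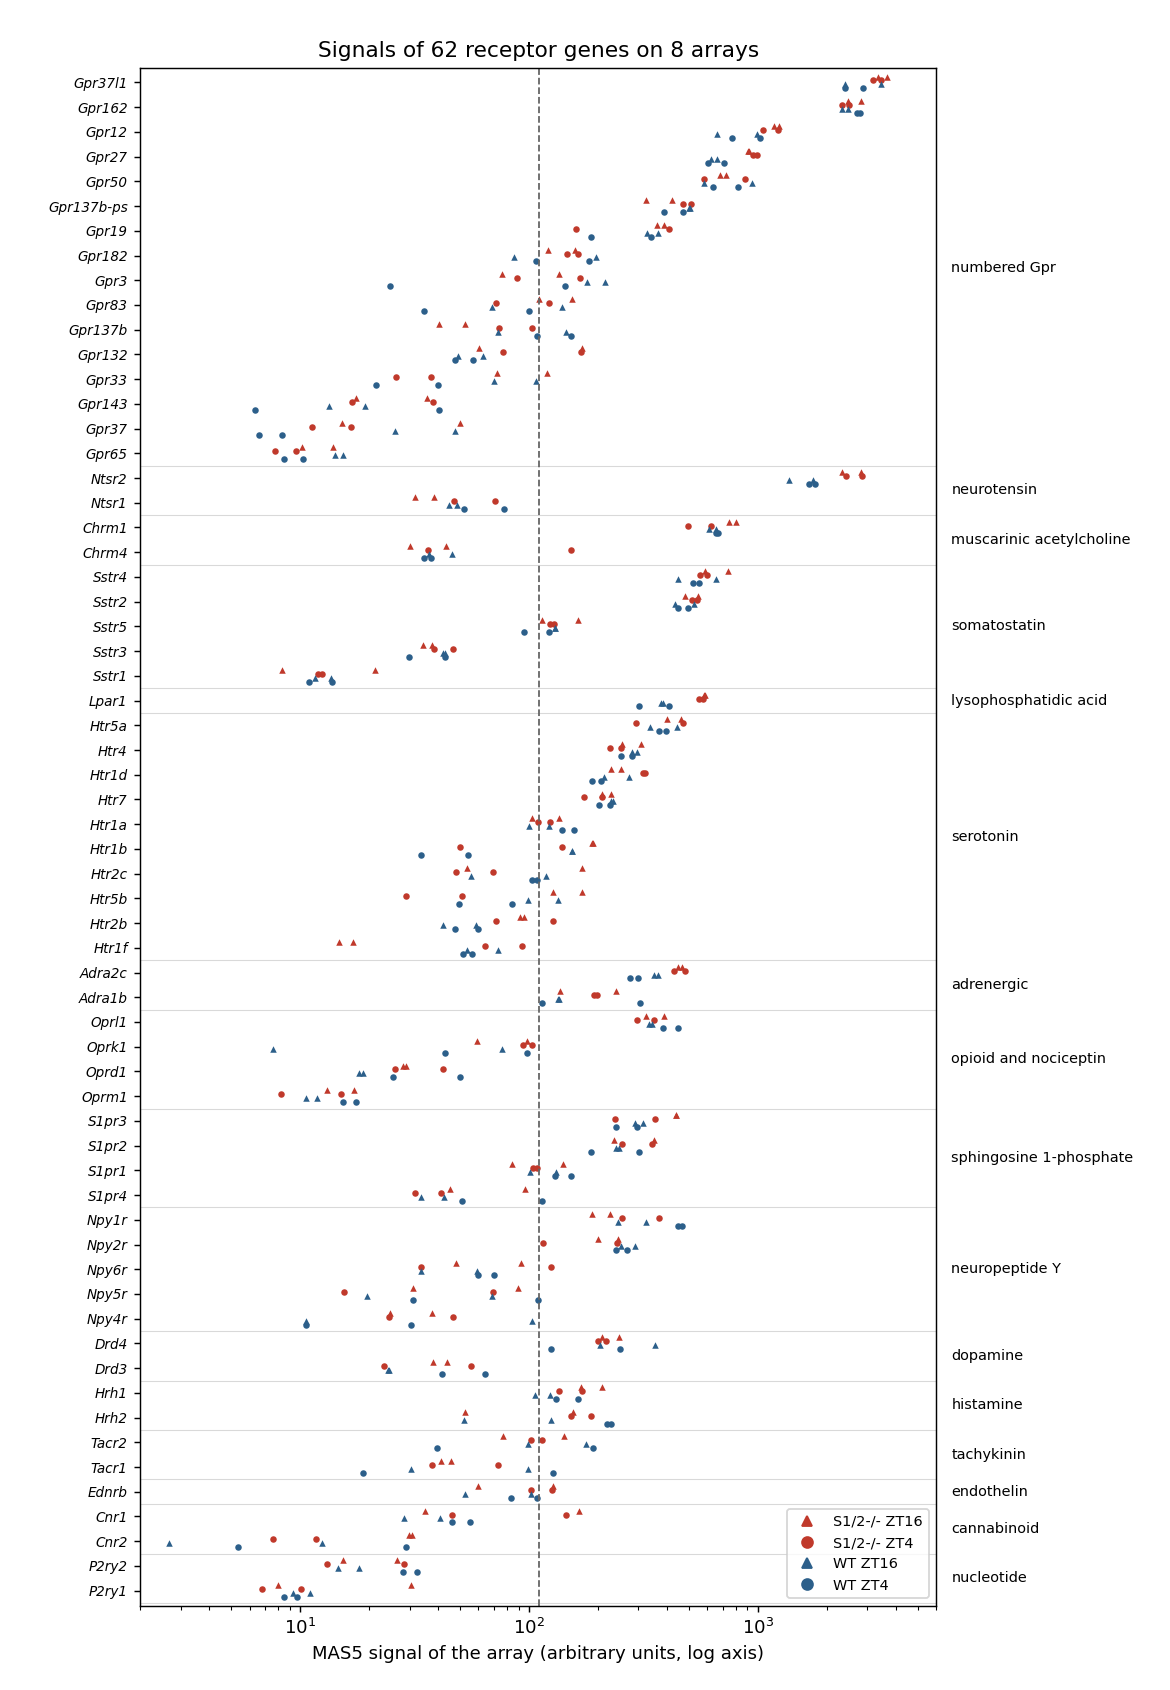
Signals of the 62 receptor genes on each of the 8 arrays (log axis, arbitrary units), grouped by ligand class, with triangles for ZT16, circles for ZT4, red for S1/2-/- mice and blue for WT mice. The dashed line is the signal of 110.9 at the 40th percentile of the array: 30 genes have a mean log2 signal above it and 32 below, and the spread between mice widens towards low signals.

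As facts of the whole series, every array had been scaled to the same trimmed mean of 500, and median signals of the arrays ran from 185.9 to 205.8. The probe set for Bhlhe40 gave 1043 and 889 in S1/2-/- mice and 1189 and 1285 in WT mice at ZT16, and 913 and 834 in S1/2-/- mice and 1074 and 983 in WT mice at ZT4. No source used here places this probe set relative to the deletion, so it does not check the genotype. Markers of cortical neurons were bright on all arrays (summed signals of 56844 to 66180). Snap25 alone gave 35070 to 46760, so the sums say little about the dimmer markers. Of these, Camk2a (210) and Syt1 (3349) were lowest in the second WT mouse at ZT16. Markers of other cells differed between groups. The summed oligodendrocyte markers were 27814 to 30104 in S1/2-/- mice and 24174 to 24458 in WT mice at ZT16, and 29873 to 30948 in S1/2-/- mice and 17928 to 19672 in WT mice at ZT4. Striatal markers summed to 7580 to 8030 in WT mice at ZT4, against 11607 to 20121 in the other 3 groups, and choroid plexus markers to 5093 to 5461 in WT mice at ZT16, against 1753 to 4038 in the others. No marker was listed at 0.

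The first question was whether receptors differed between S1/2-/- and WT cortex. Of the 30 receptors tested, 1 was called, Ntsr2, when both times were averaged (fold change over 1.5 and limma adjusted p under 0.05). Over the whole array 19 of 7453 probe sets (0.255%) met the same criteria. Separately at ZT4 and at ZT16 no receptor was called, where 0.0939% and 0.0134% of all probe sets were. With the unadjusted limma p under 0.05 and the same fold limit the counts were 2 receptors in the average (2.51% of all probe sets), 4 at ZT4 (3.33%) and 2 at ZT16 (4.28%). The 95% interval of a receptor's log2 fold change at one time reached a median of 0.543 to either side, so a change of 1.5-fold lay near the limit of what 2 mice per group resolve.

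Ntsr2 was higher in every S1/2-/- mouse than in every WT mouse. Its signals were 2332 and 2822 in S1/2-/- mice and 1742 and 1367 in WT mice at ZT16. They were 2841 and 2427 in S1/2-/- mice, against 1678 and 1770.5 in WT mice, at ZT4. Averaged over both times Ntsr2 rose 1.59-fold in S1/2-/- cortex, a log2 fold change of 0.67 (SE 0.10, 95% interval 0.44 to 0.90, limma adjusted p = 0.0352). At ZT16 alone the log2 fold change was 0.73 (adjusted p = 0.212) and at ZT4 alone 0.61 (adjusted p = 0.285). The call was lost without the filter on dim probe sets (adjusted p = 0.0673), with median centring (0.0573), without the intensity trend of the variance (0.202), and without any single mouse except the first WT mouse at ZT16, with log2 fold changes of 0.58 to 0.76. Without that mouse Ntsr2 was also called at ZT16 (0.91, adjusted p = 0.0201) and Gpr12 joined it in the average (0.61, adjusted p = 0.0446).

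Of 9 astrocyte markers tested, 7 had higher means in S1/2-/- cortex over both times (median log2 fold change 0.26), and Gfap, the intermediate filament of reactive astrocytes, was called (log2 fold change 1.15, limma adjusted p = 0.00979). Their summed signals were 19358 to 19639 in S1/2-/- mice and 16837 to 19997 in WT mice at ZT16, and 18192 to 20092 in S1/2-/- mice and 17378 to 18600 in WT mice at ZT4. Aldoc alone gave 9587 and 8956 in S1/2-/- mice and 8326 and 12230 in WT mice at ZT16. The sums therefore say little about dimmer markers such as Gfap. The part of the astrocyte markers in the Ntsr2 difference was not tested. In tissue RNA, more cells of a type and more RNA per cell cannot be told apart. Gpr37l1, another receptor of astrocytes, had signals of 3648 and 3363 in S1/2-/- mice and 2413 and 3446 in WT mice at ZT16. At ZT4 it had 3454 and 3184 in S1/2-/- mice and 2882 and 2392 in WT mice. One WT mouse at ZT16 was as high as the S1/2-/- mice, and the log2 fold change over both times was 0.31 (SE 0.11, adjusted p = 0.32).

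A further 4 receptors had all 4 S1/2-/- mice above all 4 WT mice without being called. With Ntsr2 these made 5 of 30 receptors (16.7%), where 3.43% of all tested probe sets had this order. No tested receptor had the reverse order, which 3.74% of all tested probe sets had. At ZT4 alone both S1/2-/- mice were above both WT mice in 10 receptors (33.3%, against 19.5% of all tested probe sets) and below them in 7 (23.3%, against 19.9%). At ZT16 alone they were above in 10 (33.3%, against 21%) and below in 4 (13.3%, against 21%).

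Gpr27 signals were 909.8 and 902 in S1/2-/- mice and 621 and 663 in WT mice at ZT16, and 954 and 991 in S1/2-/- mice and 604 and 709.8 in WT mice at ZT4. The genotypes were well apart at both times, with a log2 fold change over both times of 0.53 (SE 0.10, limma adjusted p = 0.0807), below the fold limit. Gpr27 lies on chromosome 6 (chr6:99692367-99695066, GRCm38.p6), 8.97 Mb from Bhlhe40, which is deleted in these mice. The other tested receptors on chromosome 6 were Hrh1, 5.73 Mb from Bhlhe40, with a log2 fold change of 0.38 over both times, Gpr162 at 16.2 Mb (-0.02) and Gpr19 at 26.2 Mb (0.07). Distances to Bhlhe41, the other gene lost in these mice, were not measured.

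Lpar1 signals were 588 and 578 in S1/2-/- mice and 378 and 386 in WT mice at ZT16. At ZT4 they were 578 and 551 in S1/2-/- mice and 302 and 408 in WT mice. The 4 S1/2-/- mice lay close to each other, and the log2 fold change over both times was 0.65 (SE 0.13, limma adjusted p = 0.0943). Lpar1 differed in the same direction as the oligodendrocyte markers, of which 8 of 9 tested were higher over both times (median log2 fold change 0.66) and 4 were called, led by the tight junction protein Cldn11 of myelin (1.02, adjusted p = 0.00491) and the myelin protein Mal (0.68, adjusted p = 0.0093). At ZT4 all 9 were higher and 3 were called. The part of these markers in the Lpar1 difference was not tested.

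Adra2c signals were 467 and 447 in S1/2-/- mice and 353 and 365 in WT mice at ZT16, and 429.9 and 481 in S1/2-/- mice and 275 and 299 in WT mice at ZT4. Its spread between mice of a group was the smallest of the tested receptors (residual SD of 0.08 on the log2 scale), with a log2 fold change over both times of 0.51 (SE 0.13, limma adjusted p = 0.178). Gpr12 signals were 1235 and 1176 in S1/2-/- mice, against 986 and 662 in WT mice, at ZT16. They were 1055 and 1229.5 in S1/2-/- mice, against 766 and 1024 in WT mice, at ZT4. Here the WT mice were the more variable, and the log2 fold change was 0.47 (SE 0.14, adjusted p = 0.265).

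**Figure D2:**
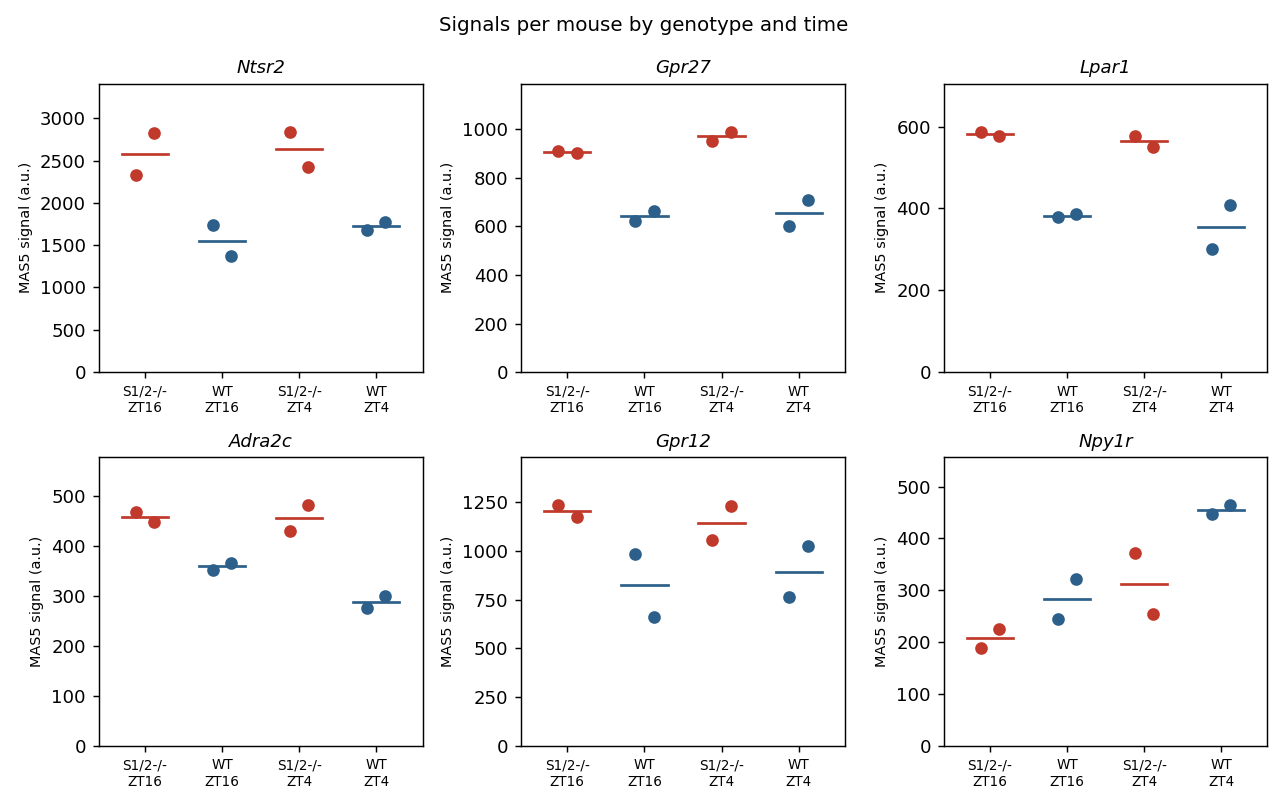
Signals of 6 receptors in each mouse (points, arbitrary units on axes that start at 0) and the mean of the 2 mice of a group (lines). In Ntsr2, Gpr27, Lpar1, Adra2c and Gpr12 the 4 S1/2-/- mice are above the 4 WT mice, while Npy1r is lower in S1/2-/- than in WT mice at each time.

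Because SHARP1 and SHARP2 bind CACGTG, the bases before the start sites of these genes were searched for it. Of the 62 genes 48 were found among RefSeq promoter windows (GRCm38.p6), with 69 windows. CACGTG, which reads the same on both strands, was present in the 250 bases before the start site in 7 receptor windows (10.1%), of Adra2c, Cnr1, Npy5r, Ntsr2, Oprd1, P2ry2 and Sstr3, and in 6.02% of all 32851 windows. Ntsr2 and Adra2c hold it, the 3 windows of Lpar1 and the 2 of Gpr12 do not, and Gpr27 was not matched. A match is a stretch of letters and not evidence of binding. The 2 sequences are shown because they belong to the receptors without overlap between genotypes that hold the motif. Each is the plus strand, with the E-box in capitals, at chr12:16653220-16653469 for Ntsr2 and chr5:35278316-35278565 for Adra2c.
Ntsr2: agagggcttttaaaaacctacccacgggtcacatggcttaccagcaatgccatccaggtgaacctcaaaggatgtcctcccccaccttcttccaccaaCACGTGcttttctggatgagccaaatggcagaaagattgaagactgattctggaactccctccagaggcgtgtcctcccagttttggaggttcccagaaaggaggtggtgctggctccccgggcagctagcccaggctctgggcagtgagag
Adra2c: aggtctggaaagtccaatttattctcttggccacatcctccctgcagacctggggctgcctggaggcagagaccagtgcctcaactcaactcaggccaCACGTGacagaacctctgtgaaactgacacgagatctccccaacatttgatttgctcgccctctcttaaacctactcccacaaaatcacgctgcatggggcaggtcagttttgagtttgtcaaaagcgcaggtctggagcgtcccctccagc
In both, the motif starts 152 bases before the start site of the window.

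The lowest log2 fold change over both times among the tested receptors belonged to Npy1r, the Gi-coupled receptor through which neuropeptide Y restrains cortical neurons. Its signals were 189 and 225 in S1/2-/- mice and 244 and 323 in WT mice at ZT16, and 371 and 254 in S1/2-/- mice and 447 and 463 in WT mice at ZT4. At each time both S1/2-/- mice were below both WT mice, but S1/2-/- mice at ZT4 overlapped WT mice at ZT16, and the log2 fold change over both times was -0.51 (SE 0.18, limma adjusted p = 0.304). A second Npy1r probe set was below the filter and gave -0.37 at ZT4, 0.19 at ZT16 and -0.09 over both times. Npy2r, the other tested neuropeptide Y receptor, gave -0.45 (SE 0.24, adjusted p = 0.488), with signals of 200.4 and 244 in S1/2-/- mice and 251 and 290.2 in WT mice at ZT16, and of 114 and 242 in S1/2-/- mice and 240.2 and 268 in WT mice at ZT4. Its probe set is of a type that can read similar sequences of a family, and a second Npy2r probe set, below the filter, gave 0.20 at ZT4, 0.07 at ZT16 and 0.13 over both times.

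Over all 30 receptors tested the median log2 fold change was 0.09 at ZT4, 0.13 at ZT16 and 0.10 in the average, against medians within 0.01 of 0 for all probe sets. Without the first WT mouse of ZT4 the receptor median was -0.0552 at ZT4 and 0.0236 in the average, and with the filter at the 60th percentile it was 0.15 at ZT4 and 0.168 in the average. At ZT16 it was 0.0259 with median centring, 0.282 with that filter and 0.218 without the first WT mouse of ZT16. In the average 18 of 30 receptors were above 0 (60%), as were 50.4% of all probe sets. By class, all 3 tested somatostatin receptors had values above 0 at both times and so had both adrenergic receptors. Of 5 tested serotonin receptors 2 were above 0 in the average. Htr1d had 314 and 321 in S1/2-/- mice and 187 and 206 in WT mice at ZT4 (log2 fold change 0.69, limma adjusted p = 0.531). At ZT16 it had 228 and 252 in S1/2-/- mice and 274 and 212 in WT mice. Hrh1, the Gq-coupled histamine receptor, had 208 and 168 in S1/2-/- mice and 123 and 106 in WT mice at ZT16 (log2 fold change 0.72, adjusted p = 0.479). At ZT4 its groups overlapped. The differences at ZT16 and at ZT4, which share no array, had the same sign in 21 of 30 receptors (70.0%, against 57.3% of all tested probe sets) and a correlation across receptors of 0.522, where the correlation over all tested probe sets was 0.158. Genes are not replicates, and these values describe the 8 mice.

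**Figure D3:**
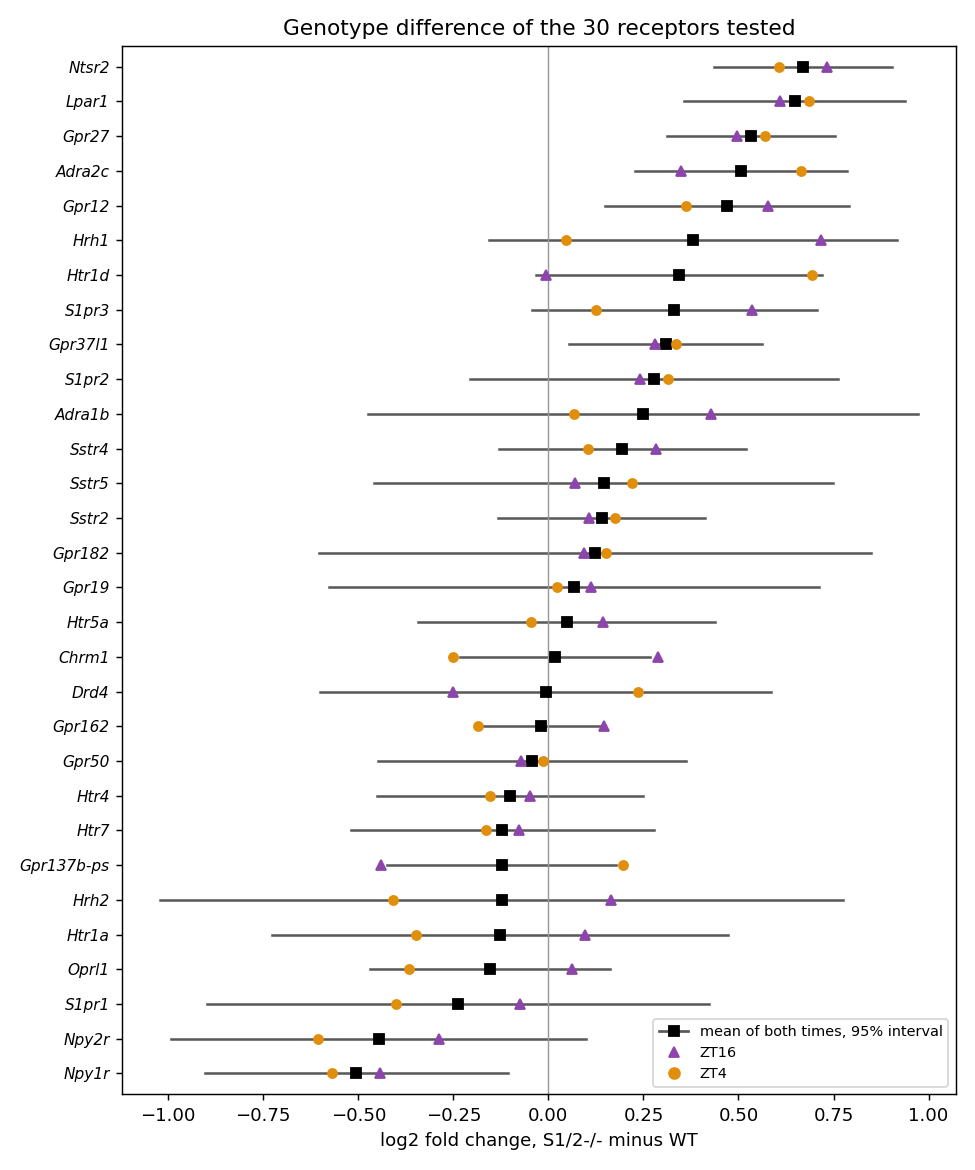
Log2 fold change of S1/2-/- minus WT for the 30 receptors tested, as the mean of both times with its 95% interval (squares and lines), at ZT16 (triangles) and at ZT4 (circles). Ntsr2, Lpar1, Gpr27, Adra2c and Gpr12 lie at 0.47 to 0.67 and above 0 at both times, and Npy1r and Npy2r lie lowest at -0.51 and -0.45.

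The second question was whether receptor levels differed between the active and the rest phase. No receptor was called for ZT16 against ZT4 in S1/2-/- mice (0% of all probe sets were), in WT mice (0.0134%), or averaged over both genotypes (0%). With the unadjusted limma p under 0.05 and the fold limit the counts were 1 receptor in S1/2-/- mice (2.82% of all probe sets), 2 in WT mice (3.45%) and 2 in the average (2.04%). Median log2 changes over the 30 receptors were 0.06 in S1/2-/- mice, 0.02 in WT mice and -0.01 in the average.

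Npy1r had the lowest p in the average of both genotypes. In S1/2-/- mice its signals were 189 and 225 at ZT16, against 371 and 254 at ZT4. In WT mice they were 244 and 323 at ZT16, against 447 and 463 at ZT4. Both ZT16 mice were below both ZT4 mice in each genotype, with a log2 fold change of -0.64 over both genotypes (SE 0.18, limma adjusted p = 0.366). The second, dimmer Npy1r probe set gave -0.34 over both genotypes. In S1/2-/- mice its times overlapped, with 56.0 and 80.2 at ZT16, against 69.3 and 69.9 at ZT4. Hrh2, the Gs-coupled histamine receptor, had 52.7 and 155 at ZT16, against 152 and 186 at ZT4 in S1/2-/- mice. In WT mice it had 125 and 52.1 at ZT16, against 219.6 and 227 at ZT4. The log2 fold change over both genotypes was -1.18 (SE 0.40, adjusted p = 0.417), and its spread between mice was the largest of the tested receptors, with 1 low mouse in each ZT16 group.

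S1pr3, a sphingosine 1-phosphate receptor of vessels and astrocytes, had 436 and 437 at ZT16, against 238 and 353 at ZT4 in S1/2-/- mice, a log2 fold change of 0.59 (SE 0.24, limma adjusted p = 0.638) that was 0.31 without the first and 0.88 without the second S1/2-/- mouse of ZT4. In WT mice it had 289 and 314 at ZT16, against 239 and 295 at ZT4. Chrm1 in S1/2-/- mice had 800.1 and 745 at ZT16, against 495 and 624 at ZT4 (0.47, SE 0.16, adjusted p = 0.552), and the change was 0.31 and 0.64 without the same mice. The serotonin receptors Htr4 and Htr7 had both ZT16 mice above both ZT4 mice in each genotype, by log2 fold changes of 0.18 and 0.16 in the average, an order that 4.94% of all tested probe sets had. For Htr7 in S1/2-/- mice the nearest mice of the 2 times both had a signal of 208. In S1/2-/- mice both ZT16 mice were above both ZT4 mice in 5 receptors (16.7%, against 21% of all tested probe sets) and below them in 4 (13.3%, against 20.4%). In WT mice they were above in 6 (20%, against 17.9%) and below in 6 (20%, against 18%). No tested receptor separated all 4 mice of ZT16 from all 4 of ZT4, an order that 5.06% of all tested probe sets had in either direction.

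Among the 32 receptors below the filter, 3 did separate the times in all 8 mice, with ZT16 above ZT4: Htr1b, Htr5b and Gpr33 (9.38%). Among all 4969 probe sets below the filter 1.53% did so in this direction, and no receptor did so in the other (1.35%). These genes were named after their values were seen. Htr1b, a Gi-coupled serotonin receptor, had 189 and 188 at ZT16, against 49.8 and 139.7 at ZT4 in S1/2-/- mice, and 153 and 154 at ZT16, against 54.2 and 33.6 at ZT4 in WT mice. Htr5b, a Gi-coupled receptor intact in rodents, had 127 and 171 at ZT16, against 28.9 and 51.1 at ZT4 in S1/2-/- mice, and 98.7 and 133 at ZT16, against 49.5 and 83.8 at ZT4 in WT mice. Gpr33, an orphan related to chemoattractant receptors, had 72.6 and 120.3 at ZT16, against 37.3 and 26.1 at ZT4 in S1/2-/- mice, and 70.3 and 107 at ZT16, against 40 and 21.3 at ZT4 in WT mice. In a fit of all probe sets with no filter the log2 fold changes over both genotypes were 1.51, 1.39 and 1.58 (limma adjusted p = 0.478, 0.478 and 0.488), and in that fit none of the 62 receptors and 0% of all probe sets were called for time over both genotypes.

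**Figure D4:**
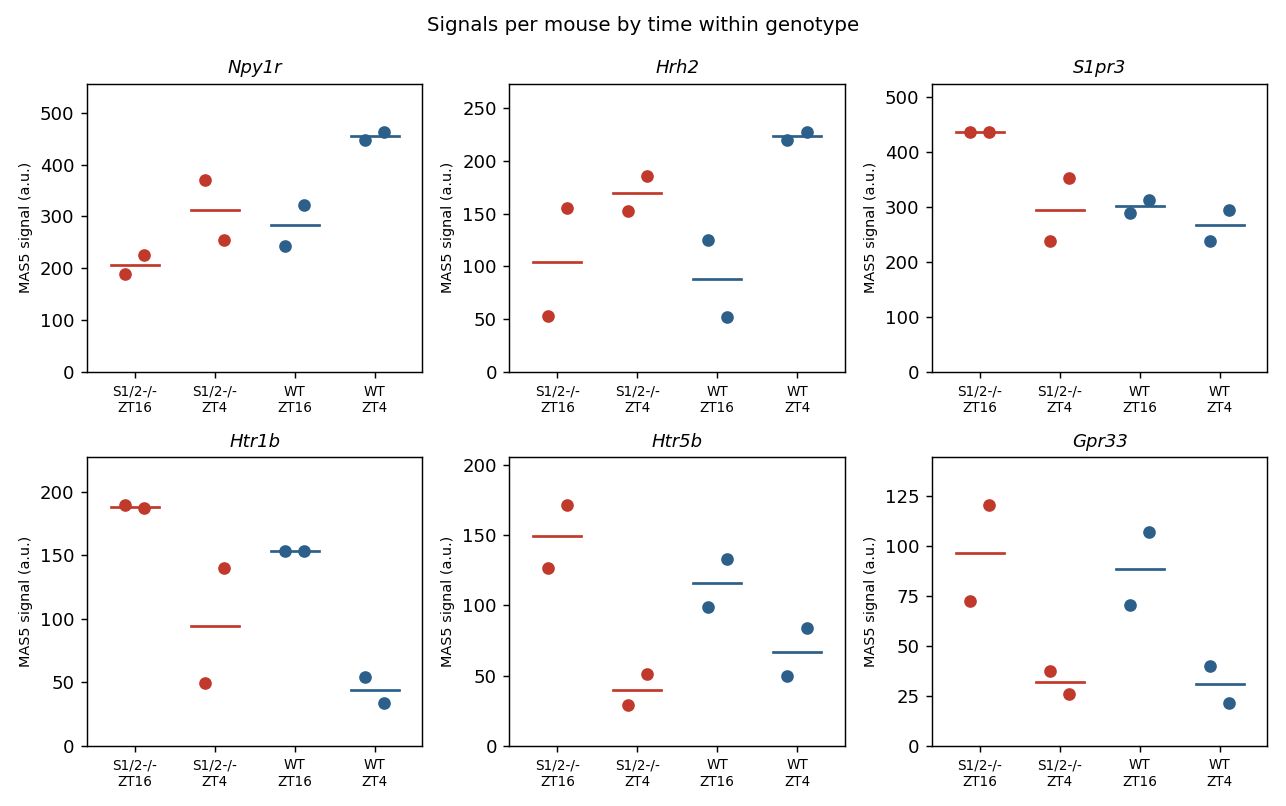
Signals of 6 receptors in each mouse (points, arbitrary units on axes that start at 0) with group means (lines), ZT16 beside ZT4 within each genotype. Npy1r and Hrh2 have lower means at ZT16 in both genotypes, S1pr3 is highest in S1/2-/- mice at ZT16, and Htr1b, Htr5b and Gpr33, all dim, are higher in each ZT16 mouse than in any ZT4 mouse.

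Changes over time in the 2 genotypes, which share no array, had the same sign in 18 of 30 tested receptors (60%, against 54.9% of all tested probe sets). Their correlation across receptors was 0.561 (0.114 over all tested probe sets). Hrh2 (-0.90 in S1/2-/- and -1.47 in WT mice) lay lowest in both genotypes, and Npy1r gave -0.57 and -0.70. The median absolute changes over the receptors were 0.14 and 0.17, and the highest changes 0.59 and 0.61. The correlation without Hrh2 and Npy1r was not computed. The third question was whether the change over time differed between the genotypes. No receptor was called (0% of all probe sets), and 1 receptor, Gpr137b-ps, had an unadjusted limma p under 0.05 with the fold limit, as did 4% of all probe sets. The lowest p belonged to Chrm1, which had 800.1 and 745 in S1/2-/- mice, against 656 and 610.4 in WT mice, at ZT16. At ZT4 it had 495 and 624 in S1/2-/- mice, against 668 and 655 in WT mice. S1/2-/- mice were thus above WT mice at ZT16 and below them at ZT4, with a difference of the time changes of 0.54 on the log2 scale (limma adjusted p = 0.85).

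Gpr162 had the same order: 2833 and 2481 in S1/2-/- mice and 2474 and 2318 in WT mice at ZT16, and 2499 and 2325 in S1/2-/- mice and 2699 and 2779.7 in WT mice at ZT4 (difference 0.33, adjusted p = 0.875). The lower S1/2-/- mouse at ZT16 was barely above the higher WT mouse, and a second Gpr162 probe set gave 0.28. Gpr137b-ps had 419.6 and 325 at ZT16, against 509 and 471 at ZT4 in S1/2-/- mice, and 499.8 and 503 at ZT16, against 387 and 472 at ZT4 in WT mice (difference -0.64, adjusted p = 0.859). Its probes may also read Gpr137b, whose own dimmer probe set gave -0.61. Htr1d, a Gi-coupled serotonin receptor, had lower signals at ZT16 than at ZT4 in S1/2-/- mice and higher ones in WT mice (difference -0.70, adjusted p = 0.875). Groups apart in opposite directions at ZT16 and ZT4, as in Chrm1 and Gpr162, were found in 2 of 30 receptors (6.67%) and in 5% of all tested probe sets. Time changes apart in opposite directions in S1/2-/- and WT mice, as in Gpr137b-ps and Htr1d, were found in 2 of 30 receptors (6.67%) and in 5.58% of all tested probe sets.

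**Figure D5:**
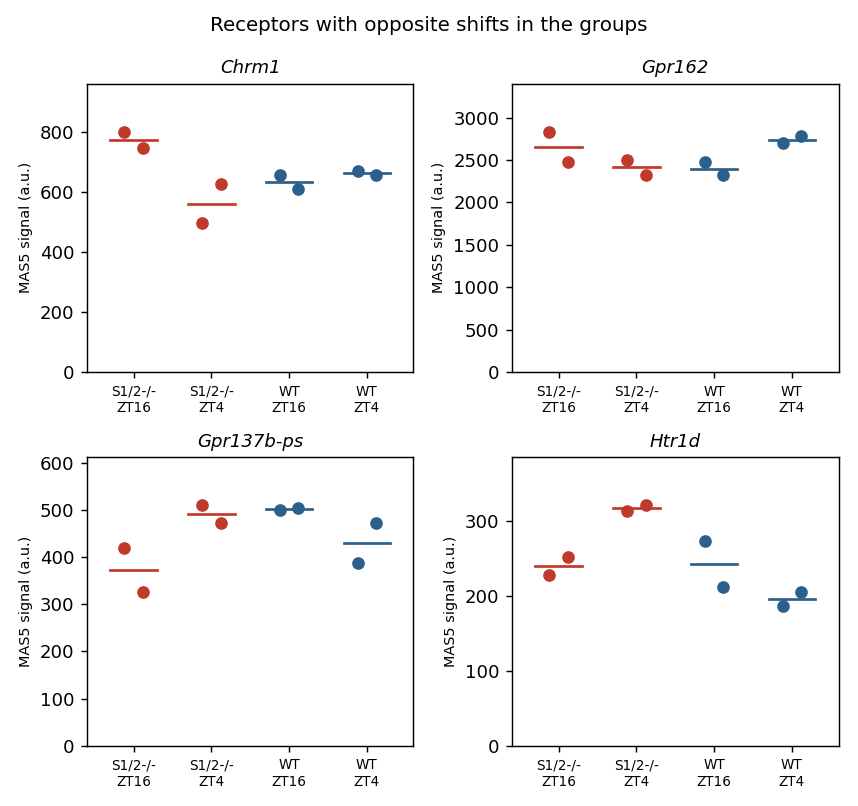
Signals of Chrm1, Gpr162, Gpr137b-ps and Htr1d in each mouse (points, arbitrary units on axes that start at 0) with group means (lines). In Gpr137b-ps and Htr1d the S1/2-/- means are lower at ZT16 than at ZT4 and the WT means higher. In Chrm1 and Gpr162 S1/2-/- mice lie above WT mice at ZT16 and below them at ZT4.

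The dim receptors varied widely within groups. Of the 32, 4 were higher in both S1/2-/- mice than in both WT mice at ZT4 (12.5%, against 18% of all probe sets below the filter) and 4 lower (12.5%, against 16.2%). At ZT16 7 were higher (21.9%, against 19.7%) and 6 lower (18.8%, against 14.8%). Htr2b, a Gq-coupled serotonin receptor, was the only one of the 32 with all 4 S1/2-/- mice above all 4 WT mice (3.12%, against 2.01% of all probe sets below the filter), at 95.1 and 91.1 in S1/2-/- mice and 58.7 and 42.2 in WT mice at ZT16, and 71.4 and 127 in S1/2-/- mice and 60 and 47.5 in WT mice at ZT4 (log2 fold change 0.87, limma adjusted p = 0.49 with no filter). Htr1f, a Gi-coupled serotonin receptor, had 14.7 and 17 in S1/2-/- mice at ZT16, against 53.7 and 72.9 in WT mice at ZT16, and 93.2 and 64 in S1/2-/- mice, against 51.3 and 56.4 in WT mice, at ZT4. Its difference at ZT16 was -1.98 (adjusted p = 0.422 with no filter). Both Htr1f values of S1/2-/- mice at ZT16 lay near the 10th percentile of their arrays, at 17 and 16.8.

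Cnr1, the cannabinoid receptor of cortical interneuron terminals, had 165 and 34.9 in S1/2-/- mice and 40.6 and 28.5 in WT mice at ZT16, and 46.1 and 145 in S1/2-/- mice and 45.8 and 55.1 in WT mice at ZT4, so that 1 S1/2-/- mouse at each time set the group mean. Chrm4, a muscarinic receptor richest in striatum, reached 152 in 1 S1/2-/- mouse at ZT4 and stayed at or under 46.1 in the other 7 mice. Htr2c, which choroid plexus carries at high levels, had 118 and 55.6 in WT mice at ZT16, where the choroid plexus markers were highest, against 53.5 and 170.1 in S1/2-/- mice at that time. Gpr37, the relative of Gpr37l1 in oligodendrocytes, had at most 49.9. Ednrb of astrocytes lay between 52.7 and 128, Tacr2 between 39.6 and 191, Tacr1 between 18.7 and 127, Ntsr1 between 31.7 and 77.4, Drd3 between 23.2 and 64.1, P2ry2 between 13.1 and 32.4, P2ry1 between 6.78 and 30.3 and Cnr2 between 2.66 and 30.9. The other dim receptors were Gpr3 (24.5 to 215), Gpr83 (34.8 to 154), Gpr137b (40.3 to 153), Gpr132 (47.4 to 171), Gpr143 (6.36 to 40.4), Gpr65 (7.74 to 15.3), S1pr4 (31.7 to 114), Npy6r (33.6 to 124), Npy5r (15.6 to 109) and Npy4r (10.6 to 103). At ZT16 Cnr2 and Drd3 were higher and Ntsr1 lower in both S1/2-/- mice than in both WT mice, and no dim receptor was called in any comparison of the fit with no filter.

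Of the genes that make, clear or hand on these ligands, no tested one was called in any comparison, and not every listed gene was tested. Among amine synthesis and clearance genes 7 of 21 listed were tested, and Th, the rate-limiting enzyme of catecholamine synthesis, had the lowest p between genotypes (log2 fold change over both times 0.52, limma adjusted p = 0.311). Of 8 tested peptide ligands, Penk and Tac1, precursors of enkephalin and substance P and abundant in striatum, differed most between genotypes at ZT4. Their log2 fold changes of S1/2-/- minus WT were 1.46 and 1.42 there (limma adjusted p = 0.0887 and 0.285). At ZT16 they were -0.44 and -0.63 (adjusted p = 0.557 and 0.516). In WT mice ZT16 minus ZT4 was 1.58 for Penk and 1.75 for Tac1 (adjusted p = 0.115 and 0.164). Penk and Tac1 are members of the striatal marker list, so its low sum in WT mice at ZT4 is not separate from them. Penk alone gave 3279 and 3601 of the sums of 7580 and 8030 in those mice. The part of striatal tissue was not tested. Npy, the ligand of Npy1r, gave 0.08 over both times (adjusted p = 0.831) and Sst gave -0.08 (adjusted p = 0.787). Of 20 listed lipid ligand enzymes 10 were tested, and Lcat had the lowest p between genotypes over both times (0.46, limma adjusted p = 0.297). Enpp2, which the paper lists among genes higher at ZT16 in WT mice, had no probe set with a single symbol and was not tested. Of 4 tested kinases and adaptors of desensitization Gprasp1, which sorts internalised receptors to lysosomes, had the highest value over both times (1.13, adjusted p = 0.251). Of 8 tested receptors of the same class outside the chosen families, Drd2 had the lowest p over both times (0.65, adjusted p = 0.239). Its difference lay at ZT4 (1.205, limma adjusted p = 0.244) and was 0.09 at ZT16 (adjusted p = 0.925). Drd2 is itself a striatal marker.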

How the data were processed

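RNA from cortex of single mice was labelled by the authors and hybridised, 1 Affymetrix array to a mouse. Their table holds MAS5 signal intensity (linear; version not given in the sources used here) for 12488 probe sets on 8 arrays. Each deposited intensity column averages 500 once 2% of its values are trimmed at either end. For this report 66 controls were dropped, values under 1 were raised to 1, and signals were put on the log2 scale. The tests used the 7453 of 12422 probe sets whose mean reached 6.79. Symbols come from the platform annotation and were the same in RefSeq.

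A single limma fit (version 3.58.1, R 4.3.3) held the 4 groups as means, with an intensity trend (4 residual and 6.02 prior degrees of freedom), and gave 7 comparisons. Calls needed a fold change over 1.5 and a Benjamini-Hochberg adjusted p under 0.05 over all probe sets tested. Values for receptors below the filter come from a fit with no filter. The number of arrays, 2 per group, limits the precision. The p-values measure the spread between single mice, with the variance of each probe set drawn towards that of probe sets of similar signal. The steps were tested on simulated data, with a required recovery only for changes much larger than that of Ntsr2.

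The receptors, gene lists and tests were chosen with earlier results of these data known. Named are the 2 brightest receptors of each class, in each comparison the called receptors and those of lowest p up to 4, receptors called under any alternative, and of each list the called genes or those of lowest p, with others where a value is singled out. Lists for microglia, endothelium, mural cells and blood were summed and not used. Other settings tried were a filter at the 60th percentile or none, median centring, quantile normalization, a pseudocount of 16, a variance without trend, only the arrays compared, unadjusted p, unmoderated ANOVA for changes over time as in the methods, a replicate block, each array left out, and every probe set of a gene.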

Additional observations from a re-analysis of the deposited data

Results flagged for a closer look

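In 4 receptors the 2 mice of each group moved without overlap in opposite directions. Between the genotypes, the change over time was opposite in Gpr137b-ps (difference of the log2 changes -0.638) and in Htr1d (-0.702), with lower signals at ZT16 than at ZT4 in S1/2-/- mice and higher ones in WT mice. Between the times, the genotype difference was opposite in Chrm1 (0.539) and in Gpr162 (0.331), with S1/2-/- mice above WT mice at ZT16 and below them at ZT4. Each of the 2 patterns was found in 6.67% of the 30 tested receptors, against 5.58% of all tested probe sets for the time changes and 5% for the genotype differences. The test of each difference did not pass (limma adjusted p = 0.859, 0.875, 0.85 and 0.875).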

How the results depend on the processing

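Of 458 alternative values for 28 named receptor results, 434 kept their direction and their side of the threshold, 11 lost and 13 gained a call, and 0 reversed. All 11 losses fell on Ntsr2 over both times, the only called result among the 28. It kept its call in 5 of 16 alternatives, among them unadjusted p. The remaining results were uncalled to begin with, so they had no call to lose. The count of receptors called between genotypes over both times, 1, was 0 with no filter, with median centring, with no intensity trend and with the replicate block (adjusted p of Ntsr2 0.0687), and 0 to 2 without single mice. At ZT16 it was 0 to 1 without single mice. With unadjusted p the counts were 4 at ZT4, 2 at ZT16 and 2 over both times between genotypes, 1 in S1/2-/- mice, 2 in WT mice and 2 over both genotypes for time, and 1 for the difference of time changes. Over all probe sets the 19 calls over both times became 11 with no filter, 11 with median centring, 0 with no intensity trend, 13 with the block and 1 to 88 without single mice, and at ZT16 1 became 154 without the first WT mouse of ZT16. The receptor median at ZT4 (0.09) ranged from -0.0552, without the first WT mouse of ZT4, to 0.115 without single mice. At ZT16 (0.13) it was 0.282 with the 60th-percentile filter, 0.0259 with median centring and 0.123 to 0.218 without single mice. Mice with the same replicate number in different groups did not deviate together (correlations of -0.00135 to 0.0982), so the numbers pair nothing, and the block changed no other receptor call. Where a mouse was left out, the single mouse left in its group was assumed to vary like the others. The cause of these changes was not tested. Dim receptors are limited by array background.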
